A study of Mus musculus with 8 samples.

Results

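The insulin-like growth factor (IGF) binding proteins are secreted carriers that hold IGF-1 and IGF-2 in blood and tissue fluid. Their levels were read in the livers of 8 female Ames dwarf mice (df/df), 1 liver to an array of the Affymetrix mouse U74Av2 design. The pituitary of Ames dwarf mice makes no growth hormone, prolactin or thyrotropin. Per the labels, the mice were fed ad libitum and were 24 to 26 months old. All 8 samples form 1 group, so every mouse carries the same deficiency, and no other genotype, age or diet was compared. The livers are numbered 1 to 8 by the number in the sample titles. The members were all probe sets that the platform annotation assigns to a single symbol among Igfbp1 to Igfbp7 and Igf2r, the receptor that binds IGF-2. This gave 11 of the 12488 probe sets, for 7 of the 8 genes named, out of 8251 genes with such a probe set on the array. The only probe set that lists Igfbp5 also lists Tmem119, so no value is given for Igfbp5.

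The liver is a main source of circulating IGF-1 and of several of its carriers. Most circulating IGF is held in a ternary complex of IGF, Igfbp3 and the acid-labile subunit, encoded by Igfals. Growth hormone induces liver Igf1 and Igfals. Igfbp1 is made by hepatocytes, where insulin represses its transcription and glucocorticoids and inflammatory cytokines induce it. Igfbp2 is the carrier that hepatocytes make in large amounts when growth hormone is low. Igfbp4 inhibits IGF action and is cleaved by the metalloprotease Pappa, Igfbp6 prefers IGF-2, and Igfbp7 binds IGFs only weakly and is typical of blood vessels. Igf2r clears IGF-2 from the cell surface and sorts lysosomal enzymes that carry mannose 6-phosphate.

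In the RefSeq gene table of GRCm38.p6, Igfbp1 and Igfbp3 are neighbours on chromosome 11, and Igfbp2 and Igfbp5 are neighbours on chromosome 1, with 0 annotated genes between the members of each pair. The RefSeq promoter table of the same build held a promoter for all 8 genes. The 250 bases before the start site of Igfbp1, Igfbp2 and Igfbp4 are shown because these genes had the 3 brightest probe sets and differed in how far they varied. They lie at chr11:7197537-7197786 (plus strand), chr1:72824230-72824479 (plus strand, the first of 2 Igfbp2 start sites in the table) and chr11:99040994-99041243 (plus strand). The Igfbp4 window lies inside the RefSeq gene span (chr11:99040005-99052655), so the bases before that span were not searched. The Igfbp3 window, not shown, also lies inside its gene span. Capitals mark matches to the 6 motifs searched on both strands, which were TGTTTTG and TATTTTG (parts of insulin response elements), TGTTTAC (forkhead core), TTCNNNGAA (STAT element), GTTAAT (HNF1 site) and CACGTG (E-box).
Igfbp1: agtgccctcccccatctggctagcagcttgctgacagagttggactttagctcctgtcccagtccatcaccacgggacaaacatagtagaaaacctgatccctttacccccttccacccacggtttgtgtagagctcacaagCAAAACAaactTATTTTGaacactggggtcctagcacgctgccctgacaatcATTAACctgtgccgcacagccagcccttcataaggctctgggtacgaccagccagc
Igfbp2: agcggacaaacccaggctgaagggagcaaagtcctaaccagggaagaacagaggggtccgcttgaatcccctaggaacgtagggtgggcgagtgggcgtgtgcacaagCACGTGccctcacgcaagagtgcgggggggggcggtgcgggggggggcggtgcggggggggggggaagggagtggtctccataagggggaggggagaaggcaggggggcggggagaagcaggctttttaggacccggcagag
Igfbp4: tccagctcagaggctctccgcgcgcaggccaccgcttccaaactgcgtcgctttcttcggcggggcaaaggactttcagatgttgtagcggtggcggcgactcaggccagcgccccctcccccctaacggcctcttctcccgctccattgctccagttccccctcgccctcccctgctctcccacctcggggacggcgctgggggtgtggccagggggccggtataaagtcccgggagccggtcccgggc
The Igfbp1 window held 3 matches. The reverse complement of TGTTTTG lay at -108 to -102 from the start site, TATTTTG at -97 to -91 and the reverse complement of GTTAAT at -56 to -51. Both insulin response motifs occurred together in 125 of the 32817 promoter windows (0.381%), TGTTTTG in 5.56%, TATTTTG in 3.95% and GTTAAT in 6.44%. The Igfbp2 window held an E-box at -142 to -137, and the Igf2r window held 2 E-boxes, against a share of 6.02% of all windows with at least 1. The motifs TGTTTAC (3.16% of all windows) and TTCNNNGAA (7.01%) matched no window of a member. The Igfbp4 window and those of Igfbp3, Igfbp5, Igfbp6 and Igfbp7 held none of the 6 motifs, nor did the second window of Igfbp2. A match is a description of letters and does not show binding.

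**Figure D1:**
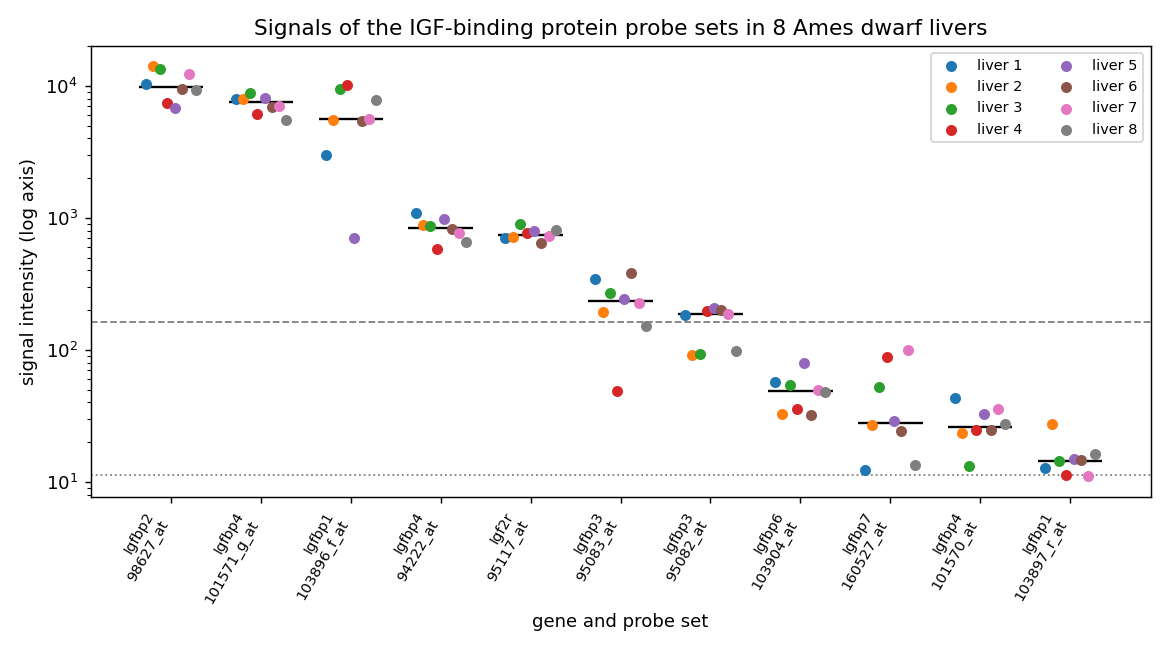
Signal intensity on a log axis of the 11 probe sets in each of the 8 livers, ordered by median. Points are livers, short bars are medians, the dashed line is the signal of 162 needed for testing and the dotted line the floor of 11.2. Igfbp2, Igfbp4 and Igfbp1 have the brightest probe sets, and the Igfbp1 point of liver 5 lies apart at 709.

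The arrays had comparable overall signals, with medians between 156 and 181 and pairwise correlations of log2 signal across probe sets, which are not independent, between 0.937 and 0.973. The bacterial spike-in controls averaged 10.70 to 10.88 on the log2 scale on arrays 1 to 4 and 10.18 to 10.46 on arrays 5 to 8, although the labels name no batch. For each of the 5 member genes tested, the signals of arrays 1 to 4 overlapped those of arrays 5 to 8. The tissue carried its defining hepatocyte markers on every array, for example Alb at 25310 or more and Apoa1 at 22844 or more. The summed signal of 10 macrophage and Kupffer cell markers was lowest in liver 7 (5092) and highest in liver 4 (21452). The typical-variance test, described below, called 8 of the 9 tested, against 702 (11.3%) of all 6211 tested probe sets. The limma test, also described below, called 0 of the 9 and 0 (0%) of the 6211. In whole liver, fewer cells of a type and less RNA per cell cannot be told apart.

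Of the 11 probe sets, 6 passed the filter on low signals, for Igfbp1, Igfbp2, Igfbp3, Igfbp4 (2 probe sets) and Igf2r. Variability between livers was tested across all 6211 probe sets that passed. The typical-variance test asks whether a probe set varied more than is typical at its signal, by chi-square with Benjamini-Hochberg adjustment at 0.05. It called 3 of the 6 member probe sets, those of Igfbp1, Igfbp2 and Igfbp3, where it called 702 (11.3%) of all tested probe sets. The median range of the 6 was 1.96-fold from lowest to highest liver, against 1.63-fold over all tested probe sets. A stricter test in limma, which sets each variance against the spread of variances at that signal, called 0 of the 6 members and 0 (0%) of all 6211. At an unadjusted p under 0.05 it held 2 of the 6 and 425 of the 6211. In simulations, 100 probe sets were given a standard deviation (SD) 6 times that typical at their signal. With the other variances drawn as unequal as limma estimated for the real ones, limma found 0 of the 100. The typical-variance test found 99, and also made 573 calls among 6011 that were left as they were. With equal variances at each signal, limma found 99 and the typical-variance test 100, with 1 and 3 of the 6011 also called.

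**Figure D2:**
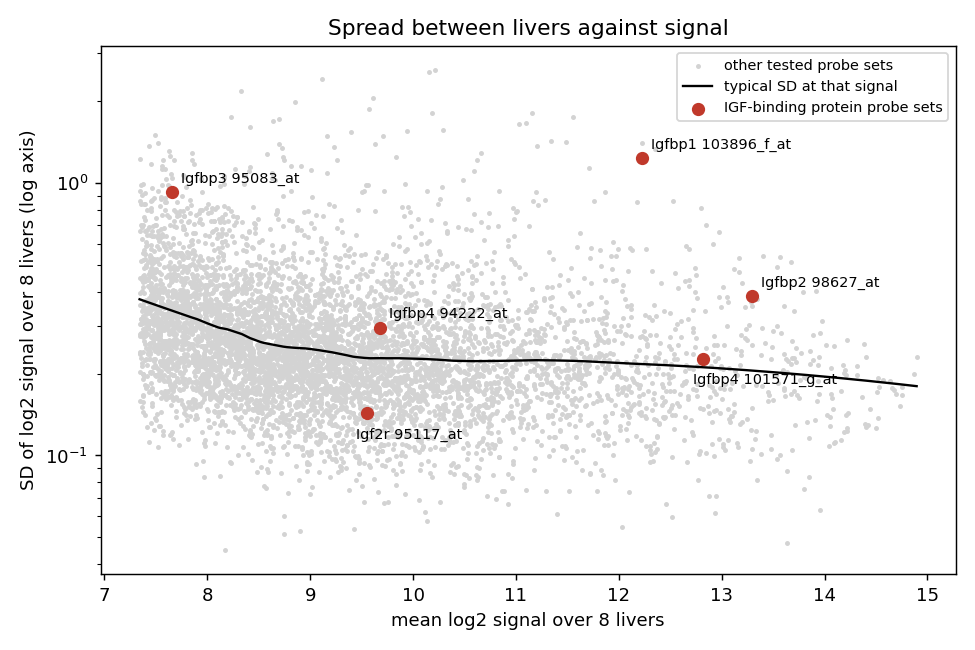
SD of log2 signal over the 8 livers, on a log axis, against mean log2 signal for the 6211 tested probe sets. The line is the typical SD at that signal, and the 6 member probe sets are red. Igfbp1 and Igfbp3 stand highest above the line among them, and Igf2r lies below it.

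Igfbp1 varied most of all members. Its bright probe set (103896_f_at) read 3012 in liver 1, 5544 in liver 2, 9456 in liver 3, 10170 in liver 4, 709 in liver 5, 5449 in liver 6, 5628 in liver 7 and 7818 in liver 8. Livers 4, 3 and 8 were high, livers 2, 6 and 7 lay close together, liver 1 was low and liver 5 far lower. The mean was 5973 ± 3167 (SD, n = 8) and the range 14.3-fold, wider than that of 99.6% of the tested probe sets. The SD of log2 signal was 1.24, which was 5.74 times the typical SD at that signal (adjusted p = 9.1e-44, typical-variance test; 0.108 in limma). Liver 5 set most of that range, since without it the range was 3.38-fold, although the typical-variance call remained (adjusted p = 3.2e-08). The f suffix of this probe set marks probes that related transcripts may share, so the called Igfbp1 result rests on such a probe set. The other Igfbp1 probe set (103897_r_at) lay near the floor of 11.2, at 27.6 or less in every liver, and was not tested.

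Igfbp2 gave the brightest signal of the members and varied about 2.08-fold. It read 10299 in liver 1, 14062 in liver 2, 13462 in liver 3, 7405 in liver 4, 6761 in liver 5, 9421 in liver 6, 12318 in liver 7 and 9271 in liver 8. Livers 2, 3 and 7 were high and livers 5 and 4 low. The mean was 10375 ± 2697 (SD, n = 8), and the SD of log2 signal was 0.39, or 1.88 times the typical SD (adjusted p = 0.0096, typical-variance test; 0.815 in limma). Without liver 2 or without liver 5 the typical-variance call was lost (adjusted p = 0.0699 and 0.0592).

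Igfbp1 and Igfbp2 were both lowest in liver 5, but they parted in liver 4, where Igfbp1 was highest and Igfbp2 second lowest. The ratio of the Igfbp1 signal to the Igfbp2 signal was 0.105 in liver 5, 0.292 in liver 1, 0.843 in liver 8 and 1.37 in liver 4, and between 0.394 and 0.702 in the other 4 livers. Such a ratio shows unequal change between livers, not which RNA was more abundant. Liver 5 was the lowest of the 8 for 16.1% of all tested probe sets, and liver 4 the highest for 17.2%.

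**Figure D3:**
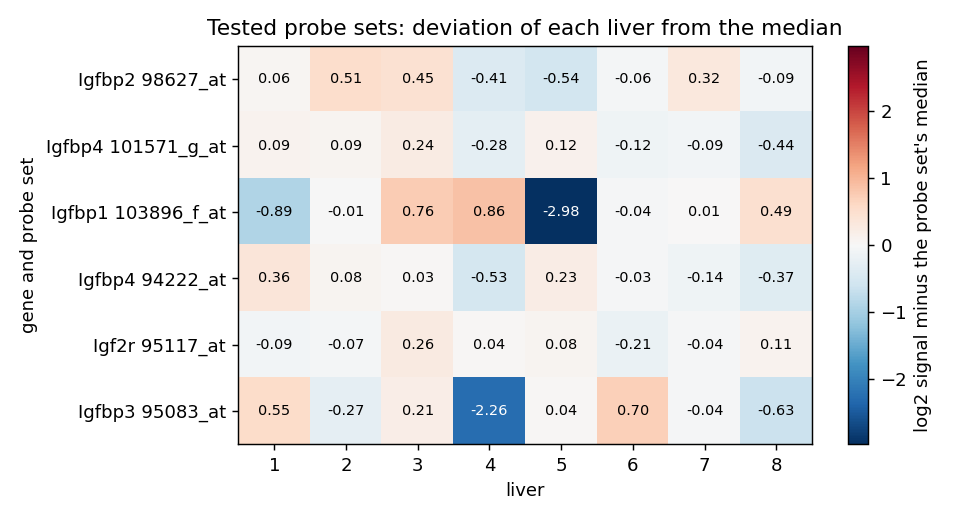
Log2 signal of the 6 tested probe sets in each liver, minus the probe set's median over livers. Red is above and blue below the median. The largest deviations are -2.98 for Igfbp1 in liver 5 and -2.26 for Igfbp3 in liver 4.

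Igfbp3 was called on 1 of its 2 probe sets, and the other was not tested. Its brighter probe set (95083_at) read 343 in liver 1, 195 in liver 2, 271 in liver 3, 48.9 in liver 4, 242 in liver 5, 382 in liver 6, 227 in liver 7 and 151 in liver 8. Liver 4 was far below the rest, and it was the lowest liver for 22.6% of all tested probe sets, the largest share of the 8. The range was 7.81-fold and the SD of log2 signal 0.93, or 2.74 times the typical SD (adjusted p = 1.7e-07, typical-variance test; 0.547 in limma). Without liver 4 the range was 2.52-fold and the call was lost (adjusted p = 0.209).

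The other Igfbp3 probe set (95082_at) did not show this pattern. It read 185 in liver 1, 92.1 in liver 2, 93.4 in liver 3, 196 in liver 4, 208 in liver 5, 202 in liver 6, 187 in liver 7 and 98.8 in liver 8. Here livers 2, 3 and 8 were low, the other 5 lay together, and liver 4 was among the higher ones. This probe set averaged 158 ± 52.7 (SD, n = 8), and its mean log2 signal of 7.22 was below the filter. Since the values of this probe set fell into separate clusters, no pooled correlation between the 2 Igfbp3 probe sets is given. The low value of liver 4 therefore rests on 1 probe set. Liver 4 also had the highest macrophage marker sum (21452), and the part of those cells in this value was not tested.

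**Figure D4:**
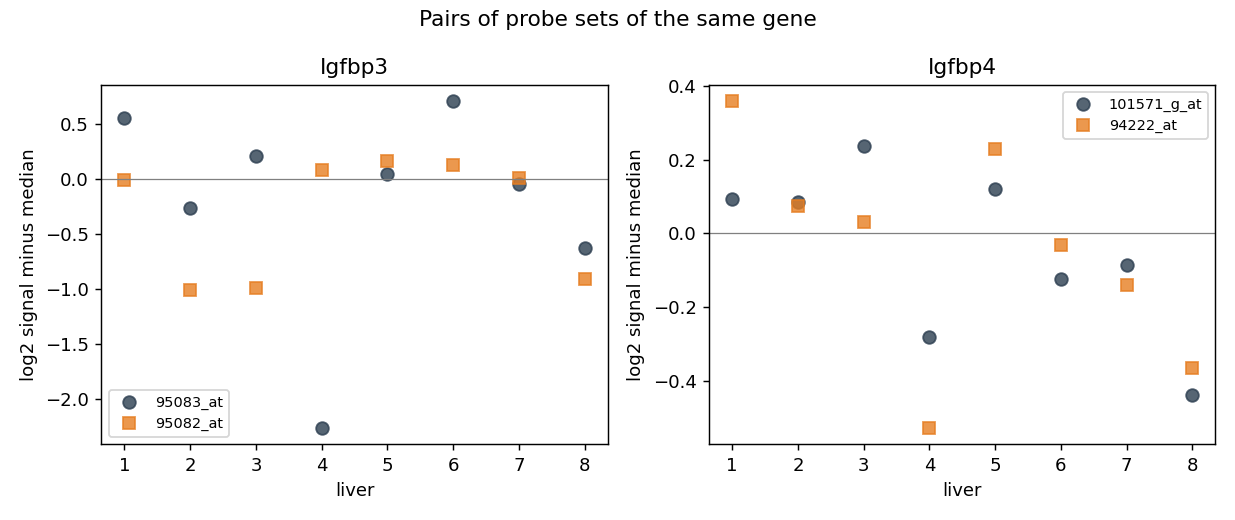
Log2 signal minus its median in each liver for 2 probe sets of Igfbp3 (left) and 2 of Igfbp4 (right). The Igfbp4 probe sets have their 2 lowest values in livers 4 and 8, while the Igfbp3 probe sets part in liver 4.

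Igfbp4 was bright, and neither of its 2 tested probe sets passed the variance test. On the brightest (101571_g_at) it read 7998 in liver 1, 7951 in liver 2, 8826 in liver 3, 6169 in liver 4, 8144 in liver 5, 6880 in liver 6, 7059 in liver 7 and 5531 in liver 8. The mean was 7320 ± 1108 (SD, n = 8) and the range 1.60-fold (adjusted p = 0.904, typical-variance test). A second probe set (94222_at) read 832 ± 164 (SD, n = 8) with a range of 1.85-fold (adjusted p = 0.491, typical-variance test). Both were lowest in livers 4 and 8. Across the 8 livers their log2 signals had a Pearson r of 0.817 (exact permutation p = 0.0145; adjusted over 5 pairs of probe sets of 1 gene, p = 0.0727) and a Spearman rho of 0.786 (exact permutation p = 0.0279). Without the 2 livers farthest from the median r was 0.511. The dimmest Igfbp4 probe set (101570_at) stayed between 13.2 and 43.1 and followed neither (r = -0.200 and 0.249, exact permutation p = 0.639 and 0.563).

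Igf2r was the most even of the tested members. It read 703 in liver 1, 712 in liver 2, 893 in liver 3, 770 in liver 4, 791 in liver 5, 647 in liver 6, 724 in liver 7 and 804 in liver 8. The mean was 756 ± 75.8 (SD, n = 8) and the range 1.38-fold, with an SD of 0.628 times the typical SD. Only 18.0% of the tested probe sets had a narrower range.

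Igfbp6 and Igfbp7 gave signals below that needed for testing. Igfbp6 (103904_at) lay between 32.3 in liver 6 and 79.4 in liver 5, with a mean of 48.6 ± 15.8 (SD, n = 8). Igfbp7 (160527_at) was highest in liver 7, read 88.5 in liver 4 and 52.3 in liver 3, and lay between 12.3 and 28.9 in the other 5 livers. With no detection calls, signals this low could not be told from background.

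Ordered by median signal, the probe sets ran from Igfbp2 (9860) through Igfbp4 (7505), Igfbp1 (5586), the second Igfbp4 probe set (844), Igf2r (747) and Igfbp3 (235 and 186) to Igfbp6 (49.0), Igfbp7 (28.0) and the dim probe sets of Igfbp4 (26.0) and Igfbp1 (14.5). Neighbours in this order separated in all 8 livers at only 2 of the 10 steps. These were Igf2r above the brighter Igfbp3 probe set and the dimmer Igfbp3 probe set above Igfbp6. Igfbp2 exceeded the bright Igfbp4 probe set in 7 of 8 livers and Igfbp4 exceeded Igfbp1 in 5 of 8, so the ranges of the top 3 overlapped. The signal of a probe set also depends on its probes. Within the same array, the 2 brighter Igfbp4 probe sets differed by a median of 8.69-fold, and the dimmest Igfbp4 and Igfbp1 probe sets lay near the floor where others of the same gene were bright. The order is one of brightness and not of RNA amount.

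The carriers were next set against their ligand and partner genes. Of 12 relations listed, 9 could be run, and 0 passed after adjustment (smallest adjusted p = 0.949, exact permutation tests). At an unadjusted p under 0.05 the count was also 0, by Pearson and by Spearman. Igfbp1 and Igfbp2 had r = 0.464 (exact permutation p = 0.257, adjusted p = 0.949) and rho = 0.143 (p = 0.752, adjusted p = 0.977). Leaving out livers 1 and 5, the farthest from the median, gave r = -0.408. Igfbp1 and Igf1 had r = -0.392 (exact permutation p = 0.338, adjusted p = 0.949) and rho = -0.500 (p = 0.216, adjusted p = 0.977), with r = -0.778 once livers 1 and 5 were left out. With the signals centred separately within arrays 1 to 4 and arrays 5 to 8, these r were 0.391 and -0.264. With Pck1 and G6pc, gluconeogenic genes that insulin also represses, Igfbp1 had r = 0.027 and -0.168 (exact permutation p = 0.949 and 0.708). With Mt1, a metallothionein gene induced by glucocorticoids and metals, r was -0.159 (exact permutation p = 0.658), and 0.576 without liver 5. Igfbp7 and Igfbp3 had r = -0.425 and -0.136 with the mean of 9 endothelial markers (exact permutation p = 0.295 and 0.752). The Igfbp7 signals were too low to be told from background, so that value says little of the gene. With 8 livers, a relation had to be close to reach the threshold, and these values do not show that the genes are unrelated.

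Igfbp2 was set against both Igf1 probe sets. On the brighter (95545_at), Igf1 averaged 1570 ± 214 (SD, n = 8) and r with Igfbp2 was 0.090 (exact permutation p = 0.834, adjusted p = 0.949) and rho -0.024 (p = 0.977, adjusted p = 0.977). Without liver 4 that r was -0.394. Whether the relations on the 2 probe sets differ was not tested. On the other (95546_g_at), Igf1 read 1067 in liver 1, 775 in liver 2, 499 in liver 3, 1252 in liver 4, 1949 in liver 5, 733 in liver 6, 792 in liver 7 and 989 in liver 8. Liver 5, with the lowest Igfbp2, had the highest Igf1 signal there, and liver 3, with the second highest Igfbp2, the lowest. That pair had r = -0.847 (exact permutation p = 0.00615, adjusted over 7 relations p = 0.0431) and rho = -0.762 (p = 0.0368, adjusted p = 0.257). The adjustment covered only the 7 relations run with second probe sets, not the 9 run on the brightest ones. Leaving out livers 2 and 5 gave r = -0.813. The 95546_g_at probe set ranged 3.91-fold and was called (adjusted p = 1.9e-06, typical-variance test), and 95545_at was not (1.52-fold, adjusted p = 0.99999, typical-variance test). By its suffix, 95546_g_at counts among probe sets whose probes related transcripts may share. The r of -0.847 therefore rests on such a probe set.

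**Figure D5:**
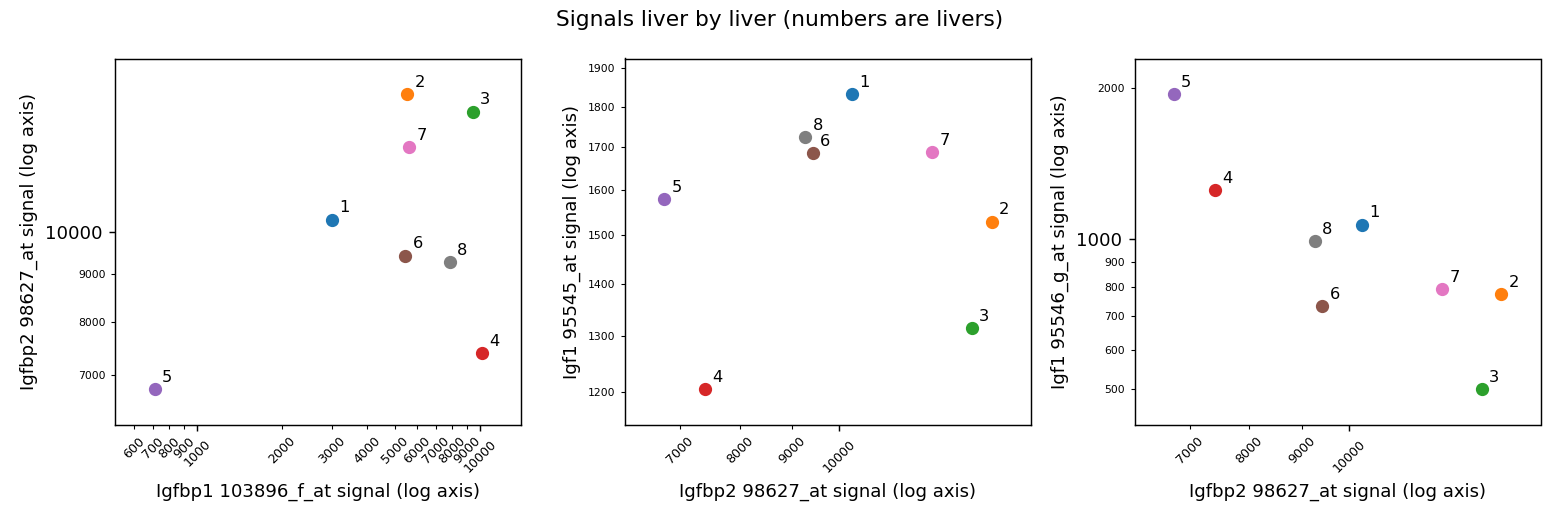
Signals on log axes in each of the 8 livers, which are numbered. From left to right the panels show Igfbp2 against Igfbp1, the Igf1 probe set 95545_at against Igfbp2 (r = 0.090) and the Igf1 probe set 95546_g_at against Igfbp2 (r = -0.847).

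Relations of Igfbp1 with Saa3 and of Igfbp3 with Igfals were not pooled because the values fell into separate clusters. Saa3, an acute-phase serum amyloid, read 15526, 9793 and 6488 in livers 4, 8 and 1 and between 166 and 473 in the other 5. Igfbp1 was highest in liver 4 and high in liver 8, but second lowest in liver 1 and second highest in liver 3, where Saa3 was lowest. Igfals, which ranged 6.75-fold and was called (adjusted p = 3.0e-12, typical-variance test), was lowest in livers 3 and 4 (92.7 and 107) and highest in liver 1 (625). Igfbp3 on 95083_at was also lowest in liver 4 (48.9), but read 271 in liver 3. For Igf2r and M6pr, the other mannose 6-phosphate receptor, no relation was computed because M6pr read 16.3 or less in every liver.

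Other genes of the pathway were counted by the typical-variance test, each on its brightest probe set, against the 11.3% of all tested probe sets. Among ligands and receptors, 1 of 5 tested genes was called, Igfals. Igf2 (98623_g_at) read 344 in liver 1 and 95.1 in liver 4 and just missed the threshold (adjusted p = 0.0518, typical-variance test). By its suffix, related transcripts may share the probes of this probe set. The other Igf2 probe set (98622_at) lay near the floor, at 13.0 or less in every liver. Ghr, the growth hormone receptor, averaged 4658 ± 604, and Igf1r, the signalling receptor, 229 ± 73.0 (SD, n = 8 each). Insr, the insulin receptor, averaged 40.7 ± 14.9 (SD, n = 8) and was too dim to be tested. Of 9 tested proteases and inhibitors, 2 were called, namely the metalloprotease Adam28, which ranged 12.3-fold and was highest in liver 4 (506), and Timp1, an inhibitor of metalloproteases. Timp1 ranged 4.54-fold and was lowest in liver 5 (181) and highest in liver 3 (822). In liver 4, where Igfbp1 was highest, it read 502.

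Among regulators, 1 of 7 tested insulin and FOXO output genes was called, G6pc, at 6428 in liver 3 and 1034 in liver 4. Of 8 glucocorticoid and metal response genes, 4 were called (Tat, Mt1, Mt2 and Dusp1). Mt1 was highest in liver 5 (19180), where Igfbp1 was lowest, and lowest in liver 1 (6276), where Igfbp1 was second lowest. Dusp1, a phosphatase of stress kinases, was highest in liver 3 (3342). Of 9 stress and starvation genes, 3 were called (Atf3, Hmox1 and Il6ra). Hmox1, heme oxygenase, was highest in liver 4 (2294) and lowest in liver 3 (718), livers that both had high Igfbp1. Of 7 tested genes of mannose 6-phosphate cargo and sorting, 0 were called by the typical-variance test or by limma, also 0 at an unadjusted p under 0.05 by either. Limma called 0 genes of these lists. At an unadjusted p under 0.05 it held 1 of 5 ligand and receptor genes and 2 of 9 proteases and inhibitors. It also held 1 of 7 insulin and FOXO genes, 3 of 8 glucocorticoid and metal genes and 2 of 9 stress genes. Over all tested probe sets limma held 425 of 6211 at that threshold, and the typical-variance test 1141.

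The probe sets whose pattern over the 8 livers was most like that of a member are given as a description, with no test. For Igfbp1 the highest Pearson r of log2 signal were with Thrap3 (0.978), Lin7c (0.972) and Dnajc2 (0.965), and the lowest with Rnf167 (-0.963), Nup85 (-0.962) and Map2k3 (-0.959). Without liver 5 these 6 values lay between 0.854 and 0.920 on the positive side and between -0.924 and -0.809 on the negative side. For Igfbp2 the highest were with Ces1c, a carboxylesterase (0.961), Ndufa5, a subunit of respiratory complex I (0.957), and Fam120a (0.956), and the lowest with Bub3, a spindle checkpoint protein (-0.957), Rcc2 (-0.954) and Rbm8a (-0.948). For Igfbp3 on 95083_at they were Mrpl50 (0.963) and Mrpl39 (0.956), both of the mitochondrial ribosome, and Ptch1, the hedgehog receptor (0.956). At the other end were Atf3, a stress-induced transcription factor (-0.951), Sec61a2 (-0.948) and Srxn1, an antioxidant enzyme (-0.941). Without liver 4 the first 3 were 0.949, 0.827 and 0.786, and the last 3 were -0.735, -0.745 and -0.694.

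For Igfbp4 the highest were with Cdv3 (0.965), Gstz1, an enzyme of tyrosine breakdown (0.963), and Pde4dip (0.958), and the lowest with Timeless (-0.957), Abcg2, an efflux transporter (-0.947), and Pwp1 (-0.938). For Igf2r they were Abhd5, an activator of triglyceride lipase (0.936), Eif2b1, a translation factor subunit (0.916), and Lats2, a Hippo pathway kinase (0.912). At the other end were Nop10 (-0.946), Trim27 (-0.939) and Yme1l1 (-0.920). Without liver 3 the first 3 were 0.880, 0.868 and 0.828, and the last 3 were -0.913, -0.878 and -0.884. The number of other probe sets with r of 0.9 or more was 36 of 6210 for Igfbp1, 21 for Igfbp2, 27 for Igfbp3, 29 of 6209 for Igfbp4 and 3 for Igf2r. With r of -0.9 or less it was 20 for Igfbp1, 12 for Igfbp2, 24 for Igfbp3, 11 for Igfbp4 and 6 for Igf2r.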

How the data were processed

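The authors deposited linear signal intensities, 1 for each probe set of each array. A Hewlett-Packard GeneArray instrument scanned them, per the labels, and the sources used here name neither the software nor a scaling target. Means trimmed by 2% at each end differed by 0.00896% between arrays, so intensities were used as deposited. Of 12422 probe sets other than the 66 controls, 10833 carried 1 symbol in the platform annotation, 396 several and 1193 none, and 10817 matched the RefSeq table of GRCm38.p6, with 0 symbols changed. Intensities under the 10th percentile (11.2) were set to it before log2. Probe sets whose mean log2 signal exceeded that of the median probe set (162) were tested.

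Variances were tested with limma 3.58.1 in R 4.3.3 (trended, robust prior, F test) and against a loess curve of span 0.3 (chi-square), both one-sided with Benjamini-Hochberg adjustment, and both checked on simulated data. Relations used exact two-sided permutation tests over 40320 pairings in Python 3.11.15. A gene was its brightest probe set, with at least 6 values above the floor. No correlation was pooled where a gap with at least 2 livers on each side exceeded 50% of the range. The relations between probe sets of 1 gene and the runs without livers 4 and 8 were added after the values were seen. The checks of the order of brightness under other processing were not planned either. The typical-variance test had been used by earlier work on these data after values were seen. The genes named were all members, Igf1, Igf2, Igf1r, Igfals, Ghr and Insr, genes of the 6 pathway lists that a test called or that enter a relation, and the 3 most and 3 least similar genes per tested member. Alb and Apoa1 were picked from the hepatocyte markers after their values were seen. Protein motifs in the analysis plan were not searched, because no protein sequences were used here. The members and lists were chosen with earlier results of these data known. The labels describe each sample as a mouse. Variance p-values compare a probe set's spread over these 8 samples with that of other probe sets. Relation p-values come from permuted pairings of the 8 samples. With 1 array to a liver, variation between livers and variation between arrays cannot be told apart.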

Additional observations from a re-analysis of the deposited data

Results flagged for a closer look

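The dim Igfbp1 probe set (103897_r_at) read 27.6 in liver 2, against 16.4 or less in the other 7 livers. The gap to the next value was 0.675 of the whole range, above Dixon's critical value for 8 samples. The bright Igfbp1 probe set did not single out liver 2, where it read 5544. Such a gap occurs by chance in about 1 in 20 groups, and 11 probe sets were examined. At this brightness, signal and background cannot be separated without detection calls.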

How the results depend on the processing

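No paired analysis was possible because all samples form 1 group. The typical-variance test also made 3 calls among the members with median scaling (9.66% of all tested probe sets called), quantile normalization (11.7%), other floors (11.3%), a loess span of 0.5 (11.3%), no filter on low signals (3 of 11, against 8.17%), and arrays 1 to 4 and 5 to 8 centred separately (10.1%). The count was 2 of 6 without livers 4 and 8 (8.1% of all tested probe sets called). With 1 liver left out it was 2 to 3 of 6 (9.53% to 11.1%). With a filter at the 75th percentile it was 2 of 5, against 347 of 3106 probe sets (11.2%). Without probe sets of shared sequence it was 2 of 4, against 528 of 5024 (10.5%). Igfbp1 was called in each of the 17 alternatives that tested it. Leaving out probe sets of shared sequence removed its bright probe set, so the Igfbp1 result rests on a probe set of that kind. The same rule removed the brightest Igfbp4 probe set (101571_g_at). Limma called 0 members throughout, and 10 of all probe sets with median scaling, 2 with the 75th percentile filter, 21 without shared sequences, 2 with separate centring and 0 to 4 with 1 liver left out (4 without liver 2 and 2 without liver 4). With 1 liver left out, the typical-variance test called 592 to 692 probe sets in all, and without livers 4 and 8 it called 503. In the order of brightness, the ranges of neighbours over the livers kept did not overlap at 2 to 3 steps.

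The number of relations past the threshold was 0 except with the second probe set of a gene, where it was 1 (Igfbp2 and Igf1, r = -0.847). That count rests on adjustment over the 7 relations of that setting alone, apart from the 9 on the brightest probe sets. Signs of weak relations turned. With the second probe set, r was 0.120 for Igfbp1 and G6pc, 0.134 for Igfbp1 and Mt1 and 0.045 for Igfbp4 and Igf1. The last was 0.230 with median scaling and 0.035 with quantile normalization. For Igfbp1 and Pck1, r was 0.558 with the second probe set, against 0.027 on the brightest. The second Igfbp1 probe set lay near the floor, so the values of Igfbp1 on it say little of the gene. Igfbp1 and Pck1 had r = -0.072 with separate centring, and Igfbp2 and Igf1 r = -0.357 without livers 4 and 8. With 1 liver left out, r ranged from -0.205 to 0.757 for Igfbp1 and Igfbp2, from -0.233 to 0.355 for Igfbp1 and Pck1, from -0.508 to 0.052 for Igfbp1 and G6pc, from -0.637 to 0.576 for Igfbp1 and Mt1, from -0.394 to 0.378 for Igfbp2 and Igf1 and from -0.566 to 0.236 for Igfbp4 and Igf1. Without livers 4 and 8, Igfbp1 and Igfbp2 had r = 0.884 (exact permutation adjusted p = 0.367). The cause of these shifts was not tested. Without detection calls, signal over background is unknown, which limits Igfbp6, Igfbp7 and the dim probe sets.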
